A study of Homo sapiens with 16 samples.

Results

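The genes described here encode the proteins that make microRNAs and carry out silencing with them: DROSHA, XPO5, DICER1, the 4 Argonautes EIF2C1 to EIF2C4 (now named AGO1 to AGO4) and the Argonaute partners TNRC6A, TNRC6B and TNRC6C. They were chosen by name, as the rows of an Ago2 CLIP peak table that are annotated to 1 of these 10 genes. Of the 10 genes, 7 had at least 1 peak, and together they held 48 of the 4718 distinct peaks, which lie in 2213 genes. EIF2C3, EIF2C4 and XPO5 had no peak. The question was whether Ago2 touches the mRNAs of its own pathway, and how that contact compared between cells with and without hippuristanol.

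A microRNA is cut from its primary transcript by Drosha in the nucleus, exported by exportin-5, cut again by Dicer and loaded into an Argonaute protein. The Argonaute uses the seed of the microRNA, near its 5′ end, to find matching sites in mRNAs, mostly in 3′ untranslated regions (3′ UTRs). TNRC6 proteins bind the Argonaute and recruit the deadenylases that shorten the mRNA's poly(A) tail. The mRNAs of this machinery can themselves be microRNA targets, and regulation of DICER1 by let-7 and by the miR-103 family is a described feedback.

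The human line 293S, derived from embryonic kidney, was either left untreated or exposed to 1 µM hippuristanol for 30 min. Hippuristanol is a natural product that inhibits eIF4A, the RNA helicase of translation initiation. Each treatment had 2 cultures, and each culture gave 1 RNA-seq library and 3 libraries of CLIP (crosslinking and immunoprecipitation of Ago2, then sequencing of the bound RNA), made with antibodies from 3 suppliers, so that the labels describe 12 CLIP and 4 RNA-seq libraries. All values below come from the authors' deposited table, which holds 1 log average and 1 log ratio (hippuristanol over untreated) per peak and names no library. How the CLIP libraries were combined into these values is not stated.

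Because each peak has 1 value and no value per library, the spread between cultures cannot be seen and differences between treatments were not tested. The sources used here do not state the base of the logarithm or the kind of normalization, so differences are given in the log units of the table and not as folds. Depth per library is unknown. RNA-seq values were not analysed here, so whether the amounts of these mRNAs differed between treatments was not examined. Of 3 markers of the cell line, LIN28B and NEFL had peaks and NEFM had none, and none of 9 markers of other cell types (among them ALB for liver, PTPRC for blood and COL1A1 for fibroblasts) had one. Only 10.4% of all protein-coding genes had a peak, so the lack of peaks in these 9 genes says little about the cells.

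Ago2 contact was recorded on 7 of the 10 pathway mRNAs, and most of the peaks lay in DICER1 and TNRC6A. Among 20052 protein-coding genes of the RefSeq annotation, 10.4% had at least 1 peak. Abundance and length of the mRNAs were not taken into account in this comparison, and both bear on whether a peak can be called. DICER1 held 20 peaks and TNRC6A 13, together 68.8% of the 48, followed by EIF2C1 with 5, TNRC6C with 4, TNRC6B with 3, DROSHA with 2 and EIF2C2 with 1. Of all genes, 0.407% had 20 or more peaks and 1.13% had 13 or more, and 1463 of the 2213 genes had a single peak.

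By annotation class, 32 of the 48 peaks (66.7%) lay in 3′ UTRs, 15 (31.2%) in coding sequence and 1 in a 5′ UTR. Over all mRNA peaks of the table, 71.8% lay in 3′ UTRs and 23.6% in coding sequence. The coding peaks were not spread over the genes: 10 of the 15 were in DICER1. Taken as listed end minus start, the peaks spanned 21 to 95 nt, with a median of 40.5 nt, against 39 nt for all peaks.

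The log ratios of these genes were mostly positive, which was also the case for the table as a whole. A log ratio above 0 was listed for 38 of the 48 peaks (79.2%), against 59.1% of all peaks. The median of all peaks, 0.15, was exceeded by 29 of the 48 (60.4%), against 50% by construction. A log ratio above 1 was listed for 11 of the 48 (22.9%) against 11.3% of all peaks, and 1 lay below −1, against 4.22%. Since 33 of the 48 peaks belong to 2 mRNAs, these shares are largely those of DICER1 and TNRC6A. Outside DICER1, 21 of 28 peaks lay above 0.

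By gene, taking the median of a gene's peaks, the values ran from −0.45 for TNRC6C to 1.04 for DROSHA. The median over the 7 genes was 0.56, and that over all 2213 genes was 0.17, called the average gene level below. DROSHA, TNRC6B, EIF2C1, DICER1 and TNRC6A lay above the average gene level, as 50% of genes do, and EIF2C2 and TNRC6C lay below it. This placement depends on the peaks with low log averages. With only the peaks whose log average was at or above the median of all peaks, DICER1 and EIF2C1 dropped out, and 8 peaks in 5 genes remained. Their list median was 0.05, below the average gene level of 0.17 in the same selection. In that selection 2 of the 5 genes lay above the level.

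**Figure D1:**
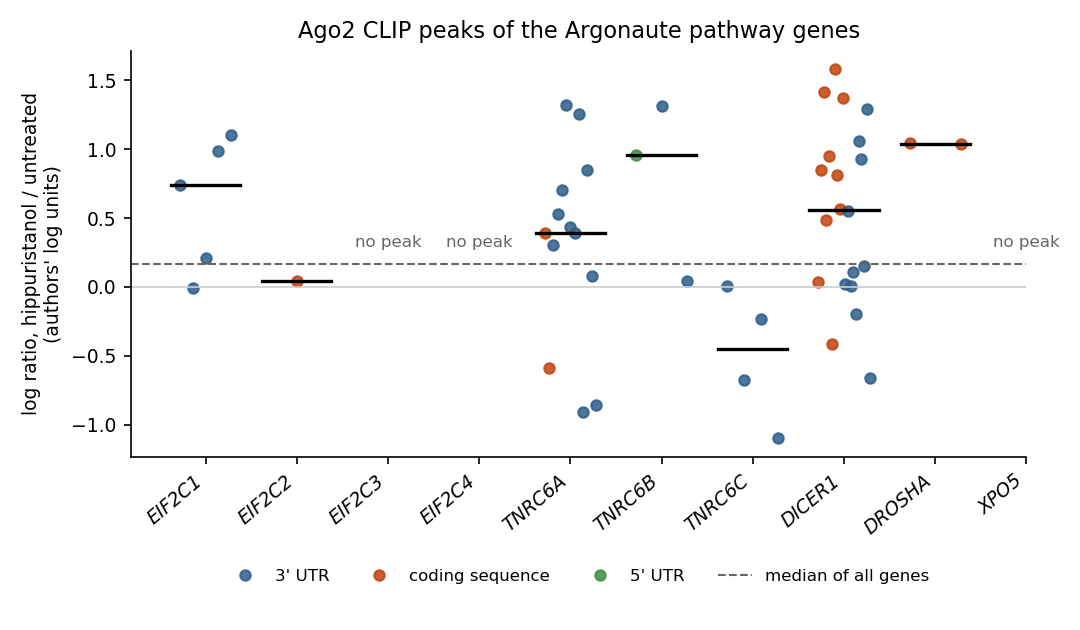
Log ratio of hippuristanol over untreated (authors' log units, y axis) for each Ago2 peak of the 10 genes (x axis). Each point is 1 peak coloured by annotation class, black bars are gene medians, and the dashed line is the average gene level of 0.17; DICER1 spreads from −0.66 to 1.58, all TNRC6C peaks lie below the dashed line, and 3 genes have no peak.

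DROSHA, the nuclear enzyme that makes the first cut, had 2 peaks, both in coding sequence, with nearly the same log ratio. The peak nearer the 5′ end (chr5:31526856-31526905, minus strand, hg19 as listed) had a log ratio of 1.04 and a log average of −8.38. The second (chr5:31515569-31515593) had a log ratio of 1.04 and a log average of −6.20. Its gene median of 1.04 was higher than that of 91.6% of all genes, and 9.17% of genes had a gene median above 1. The annotated 3′ UTR of DROSHA is short, 298 nt in GENCODE 29, and held no peak and no match to the 8 microRNA seeds searched. Its coding sequence of 4014 nt, where both peaks lay, held 1 match each to the seeds of miR-17, miR-19b, miR-92a and miR-30a. At least 1 coding match was present in 10.9%, 10%, 6.97% and 7.58%, in that order, of 1464 genes with a 3′ UTR peak and a matched transcript. DROSHA is not among those genes, and the shares do not take the length of the coding sequence into account. XPO5, which exports the precursor hairpins, had no peak.

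DICER1, the enzyme that cuts the precursor hairpin into the mature duplex, was the most densely contacted of the 10 mRNAs in coding sequence. It had 10 peaks in coding sequence and 10 in the 3′ UTR. No other gene of the table had 10 or more peaks in each class, and 2 genes of 694 with a coding peak had 10 or more of them. Of those 694 genes, 559 had 1 coding peak. Per length, the DICER1 coding sequence of 5769 nt held 1.73 peaks per kb, against a median of 0.966 over 230 genes with peaks in both classes. Its 3′ UTR of 4270 nt held 2.34 peaks per kb, more than in 93.1% of the 982 genes whose annotated 3′ UTR is 1000 nt or longer, where the median was 0.564.

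The seeds of 8 microRNA families were searched in the annotated transcripts, because seed matches are the usual mark of an Ago2 target. The families were chosen by name, with earlier results of these data known. A match is the 7-nt complement of bases 2 to 8, searched on the transcript strand only. For DICER1 the highest match densities were those to miR-103a in the 3′ UTR and to let-7 in coding sequence. Both were described above as regulators of DICER1, so a choice that included them made such matches likely. The mature microRNAs are shown with the seed in capitals, followed by the 4 let-7 matches of the coding sequence in 5′ to 3′ order with the match in capitals.
let-7a-5p: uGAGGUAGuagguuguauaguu
miR-103a-3p: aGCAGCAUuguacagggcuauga
DICER1 coding match 1: atactgtgttCTACCTCttaatgttgt
DICER1 coding match 2: gtgcaaccaaCTACCTCatattccatt
DICER1 coding match 3: gctaacaaatCTACCTCagatggaagt
DICER1 coding match 4: cgattttggaCTACCTCataaccaagc

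These matches begin at bases 2635, 3641, 3749 and 5139 of the coding sequence, counted from the first base of the start codon. On GRCh38, minus strand, the second is at chr14:95103739-95103765, the third at chr14:95103631-95103657 and the fourth at chr14:95094097-95094123, each within 1 coding exon. The first is printed from the spliced transcript and crosses an exon junction. In 3 of the 4 matches the next base is A, the base that lies opposite the first base of a microRNA and strengthens many sites. For the let-7 matches of TNRC6C coding sequence this held for 0 of 2, and for that of the EIF2C1 3′ UTR for 0 of 1. The share over all genes was not computed. Of 1464 genes with a 3′ UTR peak and a matched transcript, 14.4% had a let-7 match in coding sequence, 6 had 3 or more, and 2, DICER1 included, had 4. The density was 0.693 matches per kb of DICER1 coding sequence against 0.0912 over the coding sequences of all these genes. The annotated 3′ UTR of DICER1 held no let-7 match, where 12.8% of the genes had at least 1.

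The 3′ UTR of DICER1 held 5 matches to the seed of miR-103a, and 4 of them were followed by A. For the miR-103a matches of the EIF2C1 and TNRC6B 3′ UTRs this held for 1 of 3 and 0 of 3. The share over all genes was not computed. The first and the last match in the DICER1 3′ UTR are shown with the match in capitals.
DICER1 3′ UTR match 1: cacctaaaatATGCTGCagattttata
DICER1 3′ UTR match 5: tacagtaatcATGCTGCagaaatttgc

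They begin at bases 1034 and 4162 of the 3′ UTR (chr14:95089448-95089474 and chr14:95086320-95086346, minus strand, GRCh38). At least 1 match was present in 18.3% of the 1464 genes, and 2 genes, DICER1 included, had 5, which was the most in a gene. The density was 1.17 per kb in the DICER1 3′ UTR and 0.0993 per kb over all. The miR-16 seed match TGCTGCT shares 6 of its letters with the miR-103a match ATGCTGC, so the matches can overlap, but the 2 miR-16 matches of this 3′ UTR, at bases 2492 and 2973, are at other places. The peaks are in hg19 and the matches in GRCh38, and which peak covers which match was not examined here.

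**Figure D2:**
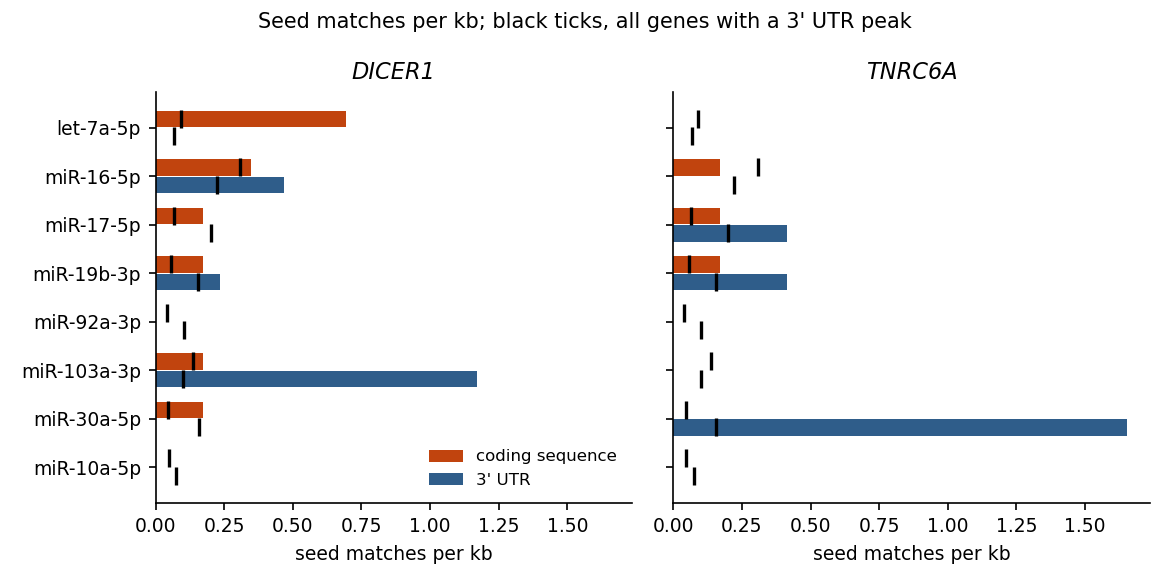
Seed matches per kb (x axis) of 8 microRNA families (y axis) in the annotated coding sequence and 3′ UTR of DICER1 (left) and TNRC6A (right). Black ticks give the density over 1464 genes with a 3′ UTR peak; the bars for let-7a in DICER1 coding sequence (0.693), miR-103a in its 3′ UTR (1.17) and miR-30a in the TNRC6A 3′ UTR (1.65) extend farthest past their ticks.

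In DICER1, 17 of the 20 peaks had a log ratio above 0 and 5 had one above 1, with a gene median of 0.56. That median was the 8th highest among 43 genes with 10 or more peaks. The log averages of its peaks lay between −9.03 and −6.91. The highest was that of a coding peak (chr14:95569953-95570002, minus strand, hg19 as listed), with a log ratio of 0.81.

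Coding peaks of DICER1 had higher log ratios than its 3′ UTR peaks. The median was 0.83 over the 10 coding peaks and 0.13 over the 10 3′ UTR peaks, a difference of 0.70, and the difference of the means was 0.44. The coding peaks ran from −0.41 to 1.58, with 8 above the median of all peaks. The 3′ UTR peaks ran from −0.66 to 1.29, with 4 above it, so the ranges overlapped widely. Over all 234 genes with peaks in both classes, the coding minus 3′ UTR difference had a median of 0.05. Over the 20 genes with at least 3 peaks in each class, this difference had a median of −0.11. It ranged there from −1.38 to 0.74, and 1 gene had a larger difference than DICER1. The log averages in DICER1 had medians of −8.36 in coding sequence and −8.45 in the 3′ UTR, for peaks of unequal length.

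From the 5′ end of the coding sequence, the first peak stood at 0.03 and the second at 0.85. The next (chr14:95577691-95577774) had 1.42, and a touching pair after it had 0.49 and 0.95. The remaining 5 coding peaks lay within 597 nt of each other in the genome and had a median of 0.81. In that cluster the lowest and the highest coding values lay side by side. The peak at chr14:95570371-95570411 had −0.41, and its neighbour at chr14:95570306-95570368, 3 nt away, had 1.58. The other 3 had 0.81, 0.57 and 1.37, the last at chr14:95569814-95569846.

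In the 3′ UTR, the first 5 peaks of DICER1 stood at 0.02, 0.55, 0.01, 0.11 and −0.20, so 4 of them were below the average gene level. Higher values followed in an overlapping pair, chr14:95553836-95553896 at 1.06 and chr14:95553827-95553850 at 0.93. These share bases and are not separate measurements. The last 3 peaks stood at 0.15, 1.29 and −0.66. The highest and the lowest value of this 3′ UTR were thus in adjacent peaks near its 3′ end, at chr14:95553243-95553270 and chr14:95552637-95552673.

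**Figure D3:**
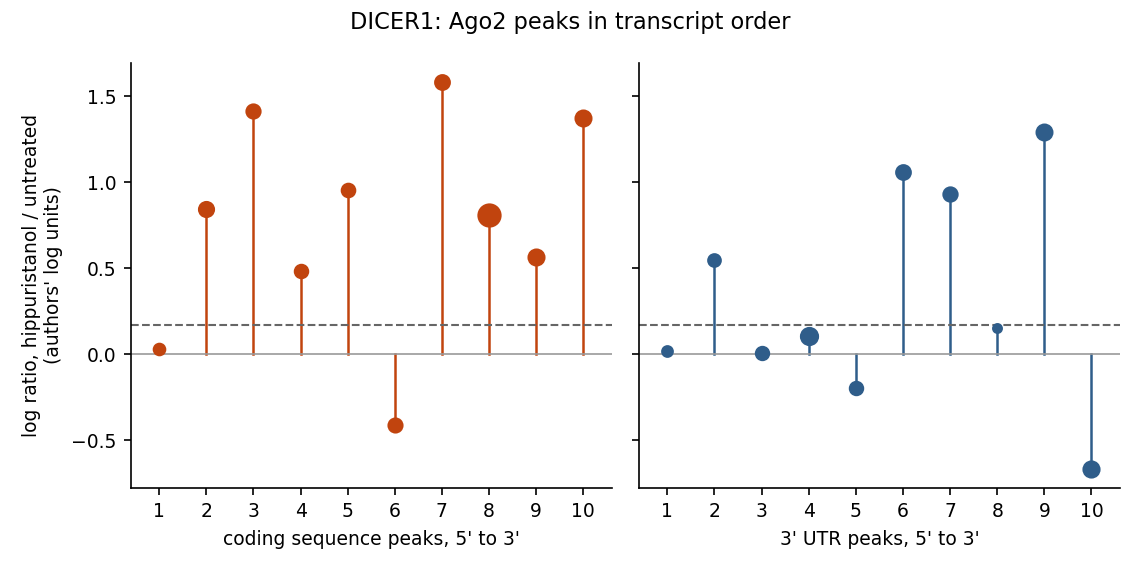
Log ratio (authors' log units, y axis) of the 20 DICER1 peaks in 5′ to 3′ order, 10 in coding sequence (left) and 10 in the 3′ UTR (right); points are larger where the log average is higher and the dashed line is the average gene level. In coding sequence 9 of 10 peaks are above 0 with a median of 0.83, while 3′ UTR peaks have a median of 0.13.

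The Argonautes, which hold the microRNA, differed in how many peaks they had. EIF2C1 (Argonaute 1) had 5 peaks, all in the 3′ UTR, with a gene median of 0.74, higher than that of 82.0% of all genes. In 5′ to 3′ order the first peak (chr1:36385943-36386015, plus strand, hg19 as listed) had 0.74. A shorter peak nested in it (chr1:36385984-36386015) had −0.01, although the bases are shared. Farther on were peaks with 0.21, with 0.99 and, last (chr1:36387627-36387657), with 1.10. The 5 peaks lay within 1714 nt of an annotated 3′ UTR of 10921 nt, at 0.458 peaks per kb. This 3′ UTR held 1 match to let-7 and 3 matches to the miR-103a seed, and 9 of the 1464 genes had 3 or more of the latter. Per length, it held 0.275 miR-103a matches per kb, against 0.0993 over these genes. Of the 3 miR-103a matches, 2 overlapped a miR-16 match.

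EIF2C2, which encodes Ago2 itself, had 1 peak, in coding sequence on chromosome 8, minus strand. Its log ratio was 0.04 and its log average −5.63, so the value lay slightly below the average gene level. No 3′ UTR peak was listed for EIF2C2. EIF2C3 and EIF2C4, the other Argonautes, had no peak of any class. The table gives no value for them, and a lack of contact cannot be told apart from too few reads.

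The TNRC6 genes, whose proteins link Argonaute to deadenylation, all had peaks, and TNRC6A and TNRC6C lay on opposite sides of the average gene level. TNRC6A had 13 peaks, 11 of them in a 3′ UTR of 2420 nt. That is 4.55 peaks per kb, more than in 97.8% of the 982 genes with a 3′ UTR of 1000 nt or longer. The 11 peaks covered a stretch of 2137 nt from the first to the last.

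The 3′ UTR of TNRC6A held 4 matches to the seed of miR-30a, the family with the highest match density in this gene. The first and the last are shown with the match in capitals, below the mature microRNA.
miR-30a-5p: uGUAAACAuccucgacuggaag
TNRC6A 3′ UTR match 1: ccagtgtcaaTGTTTACtcaagggtgt
TNRC6A 3′ UTR match 4: ggcttttaacTGTTTACaaatagaatg

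They begin at bases 455 and 1552 of the 3′ UTR (chr16:24824252-24824278 and chr16:24825349-24825375, plus strand, GRCh38), and the others at bases 746 and 786. The density was 1.65 per kb against 0.157 per kb over the 1464 genes. Of these genes 27% had at least 1 match and 3, TNRC6A included, had 4 or more. The let-7 and miR-103a seeds had no match in this 3′ UTR.

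TNRC6A had a gene median of 0.39, with 10 of 13 peaks above 0. Its coding peaks had 0.39 (chr16:24800983-24801015, plus strand, hg19 as listed) and −0.59 (chr16:24834810-24834863). The first 7 3′ UTR peaks, in 5′ to 3′ order, all lay above the average gene level, at 0.30, 0.53, 0.70, 1.32, 0.44, 0.39 and 1.25. The pattern then broke: the eighth (chr16:24836666-24836727) had −0.91 and the ninth 0.85. The last 2 peaks had 0.08 and −0.85.

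The eighth 3′ UTR peak of TNRC6A had both the lowest log ratio of the gene and its highest log average, −6.02. The peaks with the next highest log averages, −6.59 (chr16:24836305-24836366) and −6.60 (chr16:24835830-24835913), had log ratios of 1.25 and 1.32, the highest of the gene. The 3 peaks with the highest log averages of this mRNA thus included both its lowest and its highest log ratios. Whether log averages were normalized for peak length is not stated, and these peaks spanned 61, 61 and 83 nt (end minus start). With only these 3 peaks, those at or above the median log average of all peaks, the gene value was 1.25.

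**Figure D4:**
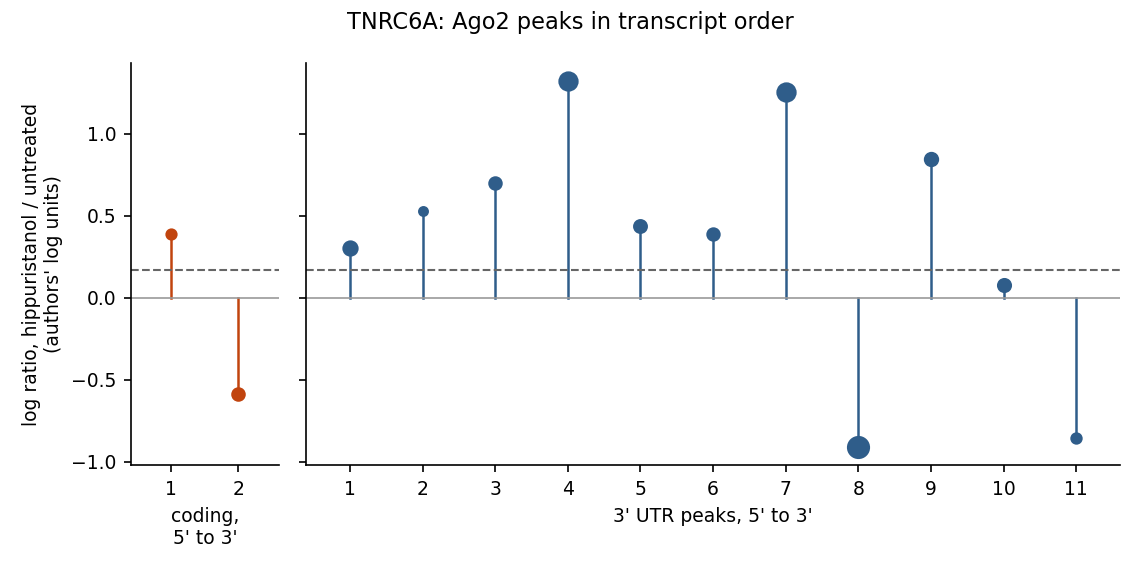
Log ratio (authors' log units, y axis) of the 13 TNRC6A peaks in 5′ to 3′ order, 2 in coding sequence (left) and 11 in the 3′ UTR (right); points are larger where the log average is higher and the dashed line is the average gene level. The first 7 3′ UTR peaks lie above the line, and the largest point is the eighth at −0.91.

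TNRC6B had 3 peaks, and its 5′ UTR peak was the only one of that class among the 48. This peak (chr22:40521792-40521827, plus strand, hg19 as listed) had a log ratio of 0.96. The 3′ UTR peaks had 1.31 (chr22:40719923-40719979) and 0.05 (chr22:40721662-40721684), the latter with the highest log average of the gene, −6.46. The annotated 3′ UTR of TNRC6B is long, 12567 nt, and held 0.159 peaks per kb, fewer than most. Only 4.79% of genes with a 3′ UTR of 1000 nt or longer had fewer per kb. It held 5 matches to the miR-16 seed, 3 of which overlapped a miR-103a match, and 4 to the miR-19b seed. At least 1 miR-16 match was present in 34.2% of the 1464 genes, and at least 1 miR-19b match in 27.1%, mostly in shorter 3′ UTRs. Per length, this 3′ UTR held 0.398 miR-16 and 0.318 miR-19b matches per kb, against 0.222 and 0.154 over these genes. It also held 1 match to the miR-10a seed, present in 14.1%.

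TNRC6C had the lowest gene median of the 7 genes with peaks, and the lowest single peak. Its 4 peaks all lay in the 3′ UTR, within 855 nt. In 5′ to 3′ order they had log ratios of 0.01, −0.67, −0.23 and −1.10, each below the average gene level. The last (chr17:76102867-76102910, plus strand, hg19 as listed) was the only one of the 48 peaks below −1 and had the highest log average of the gene, −6.52. The gene median of −0.45 was higher than that of 16.9% of all genes. Its 3′ UTR of 3990 nt held 2 matches each to the miR-17, miR-19b and miR-30a seeds. At least 1 such match was present in 33.1%, 27.1% and 27%, in that order, of the 1464 genes. The coding sequence of TNRC6C, which held no peak, had 2 let-7 matches and 3 matches each to miR-16 and miR-10a. At least 1 coding match was present in 14.4% of the 1464 genes for let-7, in 34.8% for miR-16 and in 7.99% for miR-10a.

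A match to the miR-19b seed was present in the 3′ UTR of all 5 genes with 3′ UTR peaks (DICER1, EIF2C1 and the 3 TNRC6 genes), against 27.1% of the 1464 genes. No match to the miR-92a seed was present in any of the 5, against 19.2%. Their 3′ UTRs, at 2420 nt or more, were longer than the median of 1632 nt for the 1464 genes, and longer 3′ UTRs hold more matches of any kind. The miR-17 match GCACTTT and the miR-19b match TTTGCAC can overlap and did so in EIF2C1, at bases 998 and 995. The amounts of these microRNAs in the cells were not analysed here.

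The listed log ratios differed between peaks of the same mRNA. With 1 value per peak, this spread cannot be told apart from measurement error. The SD of the log ratio over peaks was 0.65 in DICER1, 0.72 in TNRC6A, 0.48 in EIF2C1, 0.49 in TNRC6C and 0.65 in TNRC6B, against 0.63 pooled within all 750 genes with 2 or more peaks. The range within DICER1, from −0.66 to 1.58, was wider than the range of the 7 gene medians, from −0.45 to 1.04. A range over 20 single peaks tends to be wider than one over 7 medians, so this does not show how far the genes differ. The 2 peaks of DROSHA had an SD of 0.0050, and how many genes with 2 peaks have values as close was not computed. Peaks of an mRNA share their source and are not replicates of the treatment.

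Other genes of the pathway were described in 3 lists by their role, chosen with earlier results of these data known. Of all protein-coding genes, 10.4% had a peak. Abundance and length of the mRNAs were not taken into account here either, so the shares below do not show an enrichment. Of 17 processing cofactors, 6 had peaks (35.3%), with a list median of 0.37, and 4 of the 6 lay above the average gene level. DGCR8, the partner of Drosha, had 1 peak, in coding sequence as in DROSHA, with a log ratio of 0.31. LIN28B, which blocks let-7 maturation, had 0.65 over 2 peaks, the nuclease XRN2 0.42 and the RNA-binding protein KHSRP −0.998, each of the latter from 1 peak.

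Of 19 genes for Argonaute loading and modification, 9 had peaks (47.4%). This list had the lowest median, −0.30, with 3 of 9 genes above the average gene level. ANKRD52, a subunit of the phosphatase that removes phosphate from Ago2, had −0.30 over 19 peaks, and CSNK1A1, the kinase that adds it, had −0.83 in 1 peak. TRIM71, a let-7 target that binds Argonaute, had −0.76 and the HSP90 cochaperone PTGES3 0.28, from 1 peak each. HSPA4, a chaperone, had −1.26 from 1 peak, the lowest of the lists. HSPA8 had the highest value of the loading list, 0.44 over 3 peaks. Both were singled out after their values were seen.

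Of 37 silencing effectors and P-body proteins, 12 had peaks (32.4%), with a median of 0.21 and 7 of 12 above the average gene level. CNOT6, a deadenylase, and CNOT4, a ubiquitin ligase of the same complex, had −0.71 and −0.38, the decapping activator DCP1A −0.42 and LSM14B 0.0015. These genes were named for the highest log averages of the list, and all of them lay below the average gene level. The 7 genes above that level had lower log averages. None of the 3 lists held a gene median above 1, where 9.17% of all genes do, and 1 gene lay below −1, where 3.43% do. No difference between the lists was tested.

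**Figure D5:**
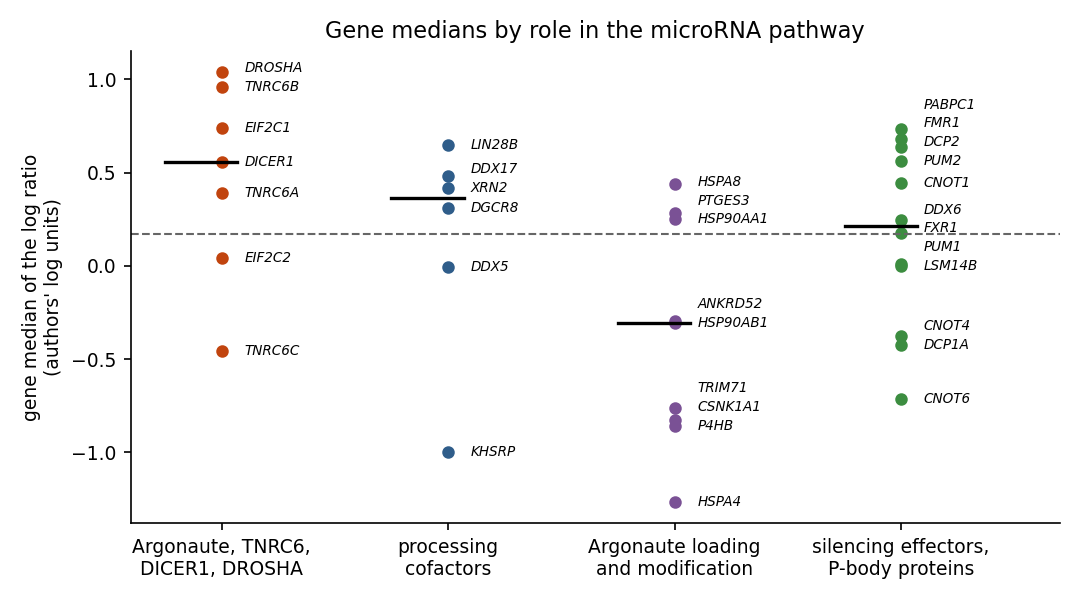
Gene medians of the log ratio (authors' log units, y axis) for the 7 genes with peaks and for the genes of 3 further lists (x axis). Each point is 1 gene, black bars are list medians and the dashed line is the average gene level; the medians are 0.56, 0.37, −0.30 and 0.21 from left to right.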

How the data were processed

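Per the file header, the authors' deposited values are normalized log scores, 1 log average and 1 log ratio for each CLIP peak. For the log base, normalization, peak caller, filters, pooling and origin of the coordinates, nothing is given in the sources used here. The tools named per the submitters' processing notes, without roles, are Bowtie 0.12.8, TopHat and DESeq, with hg19. Peak coordinates are printed as listed.

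The 4768 rows were read with pandas 2.3.3, and 50 rows repeating a gene's values were dropped, none in the 10 genes. Genes were summarised by the median over peaks. Transcripts (GENCODE 29, GRCh38) were matched by RefSeq identifier for 95.3% of 1537 genes with a 3′ UTR peak, 1 per gene. MicroRNA sequences came from RefSeq (GRCh38.p14). Every peak of the 10 genes was named, and up to 4 genes per further list with the highest log average. The 10 genes, lists and microRNAs were chosen with earlier results of these data known. With 1 deposited value per peak and none per library, no test was made. Medians, intervals and overlap handling were tested on simulated data. Alternatives covered mean values, 3′ UTR peaks only, every row, peaks with higher log averages, overlapping peaks and centring.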

Additional observations from a re-analysis of the deposited data

How the results depend on the processing

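No paired analysis was possible because the table gives 1 value per peak and none per culture, so no test was made. The list median of 0.56 became 0.55 with mean values, 0.44 with 3′ UTR peaks only and 0.55 with overlapping peaks reduced to 1, and lay between 0.47 and 0.65 when each gene was left out in turn. Keeping peaks at or above the median log average, it was 0.05, on the other side of the average gene level (0.17). The count of genes above that level, 5 of 7, was 3 of 5 with 3′ UTR peaks only and 2 of 5 with higher log averages. That last selection left 8 peaks, of which 6 lay above 0 and 4 were beyond 1 in size. Over all peaks of that selection the shares were 57.9% and 15.7%. Without the selection the counts were 38 and 12 of 48, against 59.1% and 15.6% of all peaks. Centred on the median of all peaks, 29 of 48 lay above 0 and 10 were beyond 1, against 50% and 14.2% of all peaks. The list median of the log average was −7.34 against −6.30 for all genes, but normalization for length is not given, so levels were not compared between genes. Of 24 alternatives for single genes, chosen partly after seeing the data, none changed sign. Several could not differ from the main value, as for EIF2C2 with its 1 peak. TNRC6A (1.25) and TNRC6B (0.05), both with higher log averages only, moved by more than the spread within genes. This put TNRC6B below the average gene level of that selection (0.17). DICER1 was 0.13 with 3′ UTR peaks only, below the average gene level of 0.16 over such peaks. Depth is unknown, so counting error could not be given.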

Other observations

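Neighbouring peaks of these mRNAs could differ sharply. Over the whole table, 628 pairs of neighbouring peaks of a gene lay under 50 nt apart without overlap, and their log ratios differed by a median of 0.55. Over the 7 such pairs in the 10 genes the median was 0.87. The pair of DICER1 coding peaks with −0.41 and 1.58 differed by 1.99, a size reached by 13 of the 628 pairs (2.07%). In TNRC6A, the eighth and ninth 3′ UTR peaks, with −0.91 and 0.85, differed by 1.76. With 1 value per peak, neither difference has an error.

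Correlations between the log average and the log ratio were low. Pearson's r was 0.23 over the 20 peaks of DICER1, 0.05 over the 13 peaks of TNRC6A and −0.02 over all 4718 peaks. These are descriptions across peaks that share libraries and, within a gene, the mRNA.

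TNRC6C was 1 of 2 genes among the 1464 with 3 or more matches to the miR-10a seed in coding sequence, where it had no Ago2 peak. Its 3′ UTR held no miR-10a match.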
